A study of Rattus norvegicus with 9 samples.

Results

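Gene expression in the brain of rats treated with Danhong injection (DHI) after ischemia-reperfusion (I/R) was compared with that of I/R rats without DHI. The comparison took the 3 arrays labelled as DHI and the 3 labelled as the I/R model, 6 of the 9 arrays in the series, and the other 3 came from sham-operated rats (Sham). All rats were male Sprague-Dawley rats, and the tissue was the infarcted hemisphere 14 days after surgery. In the I/R and DHI rats a nylon filament blocked the right middle cerebral artery for 2 h before it was withdrawn. DHI rats then received DHI through the tail vein each day for 14 days, at the middle of the study's 3 doses. Sham rats had the neck artery exposed with no filament, and received the solvent by the same route. Whether the I/R rats were also given solvent is not stated in the sources used here. Each array is treated as 1 rat. A limma p-value rests on 1 spread per probe, estimated over all 9 rats, Sham included. It is not the spread of the I/R and DHI rats alone. The samples were whole pieces of hemisphere, so that fewer cells of a type and less RNA per cell cannot be told apart.

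DHI is a water extract of the root of Salvia miltiorrhiza and the flower of Carthamus tinctorius, used in China in stroke. When the middle cerebral artery is blocked and reopened, neurons in the striatum and the overlying cortex die. Over the following days microglia and macrophages from the blood clear the debris, astrocytes around the lesion turn reactive and lay down a scar, and T cells enter. Type I and type II interferons, which these cells release, switch on a shared set of antiviral and antigen-presentation genes through factors of the STAT and IRF families.

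The arrays were one-color Agilent SurePrint G3 Rat arrays. Throughout, a level is the log2 signal of a probe minus the 75th percentile of its array, so that 0 is the 75th percentile and a step of 1 is a doubling. A log2 FC is the difference between the mean levels of DHI and I/R. The 75th percentile of the signal was 1816.3 to 2785.1 on the DHI arrays and 2628.7 to 3464.4 on the I/R arrays. Of the 30367 probes, 75.2% to 78.9% were well above background on each array. A probe entered the limma test if some group had it well above background on each of its 3 arrays, which 23747 did. Defining genes of neurons (Snap25), astrocytes (Gfap), and myelin (Mbp) were well above background on all 9 arrays. Slide 1 held the Sham and I/R arrays. The 3 DHI arrays occupied slide 2, scanned apart from it, and slide and DHI cannot be told apart. Only 3 arrays per group limit the precision of every value.

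At the study's thresholds, an unadjusted p under 0.05 and an FC over 1.5, limma called 5211 probes in DHI versus I/R, 21.9% of those tested. Of these, 2721 (11.5% of those tested) were higher in DHI and 2490 (10.5%) were lower. The direction of the calls depended on the processing. DHI was the higher group for 52.2% of the called probes, for 45.8% with quantile normalization, for 4.8% with no scaling between arrays, and for 63.7% after normexp background correction. Over all probes tested, the median log2 FC was 0.10, and the median SE was 0.269. After Benjamini-Hochberg adjustment over all probes, limma called 1 probe (0.00421%), and 6035 probes had an unadjusted p under 0.05. That probe, RGD1559588, gave levels of -4.93, -4.56, and -5.23 on I/R 1 to I/R 3 and was not well above background on any Sham or DHI array. It was at least 11.1-fold lower in DHI (limma adjusted p = 0.00905). As it passed the filter on dim probes through I/R alone, its p rests on background values in DHI and Sham, and 0 probes were called after adjustment when each of the 9 arrays had to exceed background well. All other called probes had a limma adjusted p of 0.196. The methods' t-test, an equal-variance test on the same values at the same thresholds, called 469 probes (1.97%) and 0 after adjustment. Of the gene lists described below, it called 5 red blood cell genes, 4 genes of the extracellular matrix, 3 of cholesterol synthesis and uptake, and 0 or 1 of each other list. In the following, a gene is said to rise or fall where limma called it at the study's unadjusted thresholds.

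The 3 DHI arrays did not behave alike. Across all probes, DHI 1 correlated at 0.979 to 0.987 (Pearson's r over probes) with the I/R arrays, and at 0.917 and 0.94 with DHI 2 and DHI 3. DHI 2 and DHI 3 correlated at 0.986 with each other and at 0.981 to 0.99 with the Sham arrays. DHI 1 lay outside the range of the I/R arrays for 25.3% of the probes, DHI 2 for 78.8%, and DHI 3 for 75.9%. Among the 5211 called probes, DHI 2 was beyond all I/R arrays in the direction of the change for 5195 and DHI 3 for 5190, but DHI 1 for only 989. For 4209 of the called probes (80.8%), DHI 2 and DHI 3 were beyond the I/R arrays and DHI 1 was not. The SD of a probe had a median of 0.40 over the DHI arrays, 0.32 over the I/R arrays, and 0.15 over the Sham arrays.

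The I/R arrays also varied, with I/R 3 nearest to Sham (r = 0.947 to 0.951 with the Sham arrays) and I/R 1 farthest (r = 0.876 to 0.886). Leaving out single arrays moved the number of called probes from 939 without DHI 2, 1127 without DHI 3, 1381 without I/R 1, and 1659 without I/R 2 to 7719 without I/R 3 and 10737 without DHI 1. A total of 688 probes (2.9%), 363 higher and 325 lower in DHI, were called whichever of the 9 arrays was left out, and these are termed kept calls below. All 3 DHI arrays lay above or below all 3 I/R arrays for 2263 probes (9.53%). Of these, 1308 were higher and 955 lower in DHI. With 3 arrays a side, such separation also arises with no difference between groups, so the share alone shows no change. For 1104 of the higher and 742 of the lower probes the DHI arrays overlapped the Sham arrays, while 150 were above all Sham arrays and 134 below all of them.

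**Figure D1:**
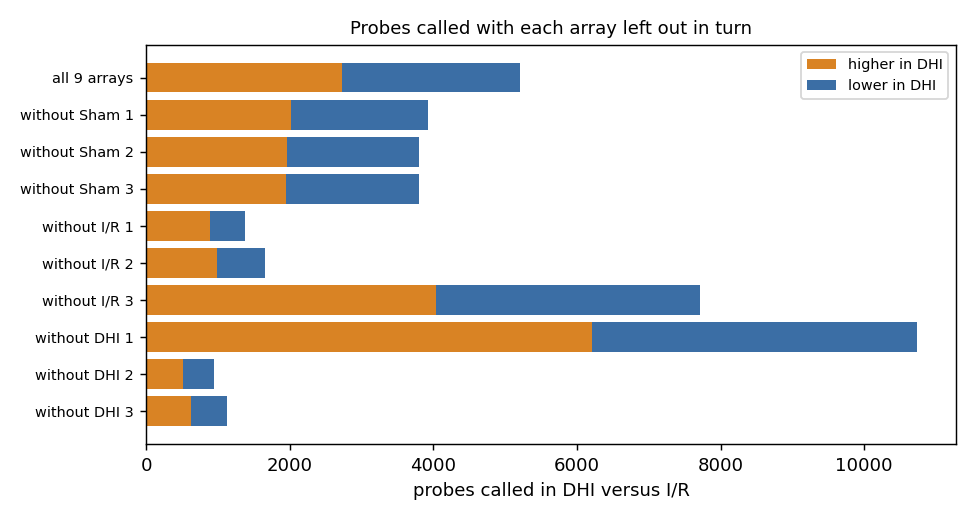
Horizontal bars give the number of probes called in DHI versus I/R at the study's thresholds with all 9 arrays and with each array left out, split into probes higher and lower in DHI. The longest bar is the one without DHI 1 (10737) and the shortest the one without DHI 2 (939).

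A first set of genes was taken for the smallest p in each direction, among probes called, well above background on the 6 arrays, and with no overlap between DHI and I/R. This pool held 512 gene symbols, 290 higher and 222 lower in DHI, and 12 were taken from each side. Non-overlap is thus a condition of the choice, and it is the order of the 3 DHI arrays and the position of Sham that add to it.

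Nrn1l, which encodes a neuritin-like protein of the neuronal surface, had the smallest p of the higher genes. Its probe lies on chromosome 19 from 35733042 to 35733101 (rn4). The levels were -3.39, -3.81, and -3.59 on I/R 1 to I/R 3, -2.20, -2.45, and -2.49 on DHI 1 to DHI 3, and -2.20, -2.39, and -2.63 on Sham 1 to Sham 3. The 3 DHI arrays, DHI 1 included, lay within the Sham range, and Nrn1l rose by 1.22 (SE 0.18) on the log2 scale. Cdr2, the antigen of a paraneoplastic cerebellar disease, had levels of -1.05, -1.09, and -1.06 on the I/R arrays and -0.09, -0.48, and -0.48 on the DHI arrays. DHI 1 was the highest of all 9 arrays, and the rise was 0.72 (SE 0.15). Spdef, an ETS transcription factor, gave -5.54, -5.51, and -5.13 in I/R and -4.30, -4.08, and -4.58 in DHI, a rise of 1.07 (SE 0.23). Its other probe, with a log2 FC of 0.54, was not called. Stk39, a kinase that controls cation-chloride cotransporters, stood at -0.95, -0.68, and -0.20 in I/R and at 0.18, 0.67, and 0.54 in DHI (rise of 1.08, SE 0.24). Tbx1, a T-box transcription factor, rose by 1.53 (SE 0.33) and Tmem132b by 1.45 (SE 0.33), with DHI 1 nearest to I/R for both.

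In 4 of the 12 higher genes the DHI arrays lay above the Sham arrays as well as above the I/R arrays. Slc22a7, an organic anion transporter, gave -6.96, -7.13, and -7.30 in I/R, -6.38, -6.16, and -6.10 in DHI, and -6.54 to -6.68 in Sham. Chst11, which sulfates chondroitin chains of the extracellular matrix, gave -6.41, -6.64, and -6.58 in I/R, -5.58, -5.32, and -5.76 in DHI, and -5.84 to -6.56 in Sham. Abca16, an ABC transporter, was at -5.23, -5.03, and -5.39 in I/R and at -4.64, -4.11, and -4.37 in DHI, with Sham from -5.15 to -4.86. Prpg1 was at -4.61, -4.59, and -3.83 in I/R and at -3.23, -3.46, and -3.41 in DHI, with Sham from -3.64 to -3.54. These 4 rises were 0.84 to 0.99 on the log2 scale, and the second probe of Prpg1 (log2 FC 0.27) was not called. Ahsp, also among the 12, is described with the red blood cell genes.

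Among the lower genes, Pard6g, a subunit of the Par complex of cell polarity, had the smallest p. It gave -2.60, -2.38, and -2.39 in I/R and -3.23, -3.46, and -3.81 in DHI, a log2 FC of -1.04 (SE 0.18). Xrcc6bp1, named Atp23 in RefSeq and encoding a mitochondrial metalloprotease, gave -0.70, -0.82, and -1.57 in I/R and -2.17, -2.74, and -2.39 in DHI, against -2.56 to -2.50 in Sham. Anxa7, a calcium-dependent membrane-binding protein, gave 1.05, 0.77, and 0.94 in I/R and 0.28, -0.11, and 0.22 in DHI, a log2 FC of -0.79 (SE 0.16). In these 3 genes the DHI arrays lay close together, although DHI 1 was the one nearest to I/R.

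Serpina3n, a serine protease inhibitor and marker of reactive astrocytes, gave -2.10, -2.88, and -3.62 in I/R and -4.37, -6.27, and -6.17 in DHI. DHI 1 was between I/R and the other DHI arrays, which were within the Sham range of -6.73 to -5.65, and the log2 FC was -2.74 (SE 0.59). DHI 1 was likewise between I/R and the other DHI arrays in Cd6, a receptor of T cells, with -2.31, -2.79, and -3.99 in I/R, -4.28, -6.33, and -6.03 in DHI, and -7.11 to -6.83 in Sham. Of the other 2 probes of Cd6, one fell by 2.22 and one, with a log2 FC of -0.10, was not called. Cenpt, a kinetochore protein, gave -3.48, -3.54, and -4.80 in I/R and -5.28, -6.09, and -6.41 in DHI (log2 FC -1.99, SE 0.42). Rhox5, a homeobox gene best known from the testis, gave -1.36, -0.12, and -1.39 in I/R and -2.68, -4.34, and -4.80 in DHI (log2 FC -2.99, SE 0.63). The falls of Slc14a1, a urea transporter of astrocytes and red blood cells, of Dlx3, a homeobox factor, of Alpk2, an alpha-kinase, and of Tmtc4 ranged from -1.48 to -1.01 in log2 FC. Bst2, the last of the 12, is described with the interferon-stimulated genes.

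**Figure D2:**
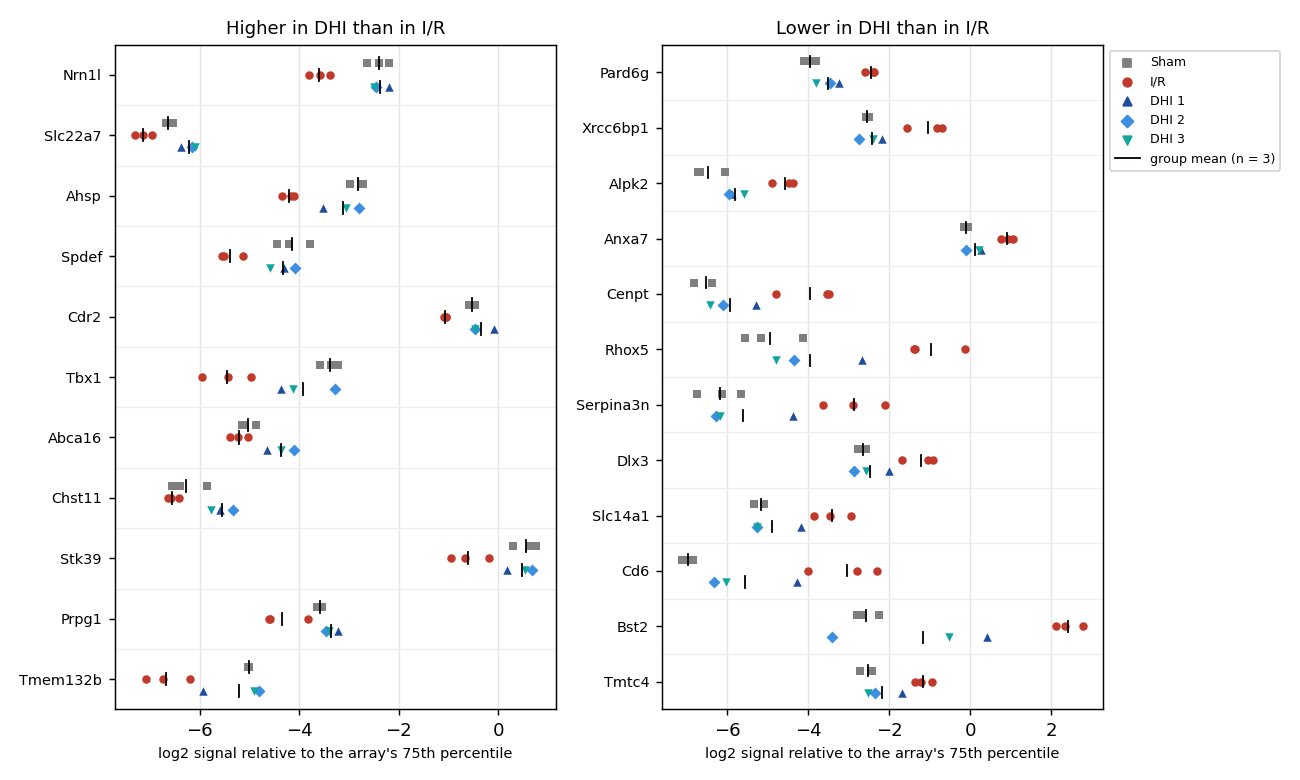
Points give the level (log2 signal, with 0 at the array's 75th percentile) of each of the 9 arrays for 11 higher and 12 lower genes with the smallest p, and black ticks the group means. In Nrn1l and Anxa7 the 3 DHI arrays lie together, while in Serpina3n, Cd6, and Rhox5 DHI 1 lies between I/R and the other DHI arrays.

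The genes with the largest change among the kept calls were also examined. Enthd1 had the largest rise. None of the I/R arrays had it well above background, the DHI arrays gave -6.22, -0.99, and -3.46, and the rise was at least 27.5-fold. Ostn, which encodes the secreted peptide osteocrin, was likewise not well above background in I/R and gave -7.58, -4.16, and -6.91 in DHI, at least 5.04-fold higher. Lamp5, a membrane protein of a class of cortical interneurons, gave -5.17, -5.00, and -3.50 in I/R, -3.22, 0.58, and -0.59 in DHI, and 0.06 to 0.77 in Sham. It rose by 3.48 (SE 0.90), with DHI 1 next to I/R 3 and far from DHI 2. Cyp11b1, a steroid hydroxylase of the adrenal gland, gave -5.40, -5.89, and -4.13 in I/R and -4.33, 0.10, and -1.42 in DHI, so that DHI 1 lay within the I/R range. Ccdc42 rose by 3.66 (SE 1.11), and exceeded background well on only 1 I/R array. For RT1-M6-1, a class I histocompatibility gene, one probe rose by 3.86 but a second probe fell by 2.26, and the first exceeded background well on only 1 I/R array. Hba-a2, described below, was also among the largest rises.

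Among the 8 genes with the largest kept falls, Bst2, Mx1, Rsad2, and Slfn3 are members of the interferon list. Slfn3, named Slfn4 in RefSeq, gave 0.21, 0.28, and -1.68 in I/R and -1.63, -9.21, and -6.54 in DHI, and was not well above background on any Sham array. Itgal, the alpha chain of the leukocyte integrin LFA-1, gave -2.31, -2.44, and -4.24 in I/R and -3.78, -9.19, and -8.44 in DHI. Clec4a2, a lectin receptor of myeloid cells, gave -2.03, -2.35, and -3.58 in I/R and -3.33, -7.64, and -7.28 in DHI. In these 3 genes DHI 1 lay above I/R 3, the lowest I/R array, and only 1 or 2 of the DHI arrays were well above background. No Sham array had any of them well above background, so all 3 passed the filter on dim probes through I/R alone. The size and p of their falls thus rest in part on background values. RT1-CE5, a class I histocompatibility gene, fell by 3.66 (SE 1.13). It belongs to a family of near-identical genes, and its probe may also bind transcripts of its relatives.

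The interferon-stimulated genes formed the only list of the 26 examined in which limma called every member. All 22 fell, against 10.5% of all probes tested, and their median log2 FC was -2.66 with a range from -5.40 to -1.13. Ifit1, Oasl, and Slfn3 passed the filter on dim probes through I/R alone, so their falls rest in part on background values. Among members well above background on all 9 arrays, 19 of 19 fell, with a median log2 FC of -2.55. All 22 were also called with no scaling and 21 with normexp background correction, but 1 by the methods' t-test. The median level of the list was 1.86, 1.56, and 0.83 on I/R 1 to I/R 3, 0.60, -3.39, and -1.87 on DHI 1 to DHI 3, and -3.25 to -2.97 on the Sham arrays. DHI 2 and DHI 3 were below all I/R arrays for 22 of the 22 genes and DHI 1 for 2. Of all probes tested, 32.6% on DHI 2, 29.1% on DHI 3, and 15% on DHI 1 were below all I/R arrays. The number called was 10 without DHI 2, 10 without DHI 3, 9 without I/R 1, and 15 without I/R 2. The 8 kept calls were Bst2, Ifi44, Mx1, Rsad2, Irf9, Ifi27, Parp9, and Slfn3.

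Bst2, or tetherin, which holds budding virus particles at the cell surface, gave 2.35, 2.79, and 2.11 on the I/R arrays, 0.42, -3.40, and -0.51 on the DHI arrays, and -2.78 to -2.25 on the Sham arrays. Its probe lies on chromosome 16 from 18698676 to 18698735 (rn4). All 3 DHI arrays were below all I/R arrays, and the log2 FC was -3.58 (SE 0.84), an 11.9-fold difference between the group means. Ifi44 was the other member with no overlap, at 1.71, 1.65, and 0.83 in I/R and 0.78, -2.47, and -1.37 in DHI, where DHI 1 was only just below I/R 3. Mx1, a GTPase that blocks RNA viruses, gave 4.61, 4.21, and 2.96 in I/R and 3.28, -1.79, and -0.71 in DHI (log2 FC -3.67, SE 1.17). Rsad2, or viperin, gave 3.03, 2.59, and 1.41 in I/R and 1.65, -3.37, and -2.20 in DHI (log2 FC -3.65, SE 1.13). For both, DHI 1 was inside the I/R range.

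The transcription factors of the pathway also fell. Irf7 gave 4.06, 3.53, and 2.31 in I/R and 2.49, -2.91, and -0.16 in DHI, a log2 FC of -3.49 (SE 1.20). Irf9 fell by 1.77 (SE 0.56) and Stat2 fell by 1.13 (SE 0.42). The ubiquitin-like modifier Isg15 gave 3.73, 3.30, and 2.47 in I/R and 2.80, -2.41, and -0.51 in DHI, a log2 FC of -3.21 (SE 1.12). The calls of Stat2, Isg15, and Irf7 were each lost without I/R 1, and those of Stat2 and Isg15 also without DHI 2 or DHI 3. Ifit1 and Oasl, which were well above background on no Sham array and on 2 of the 3 DHI arrays, also fell, with log2 FCs of -2.40 and -2.86.

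**Figure D3:**
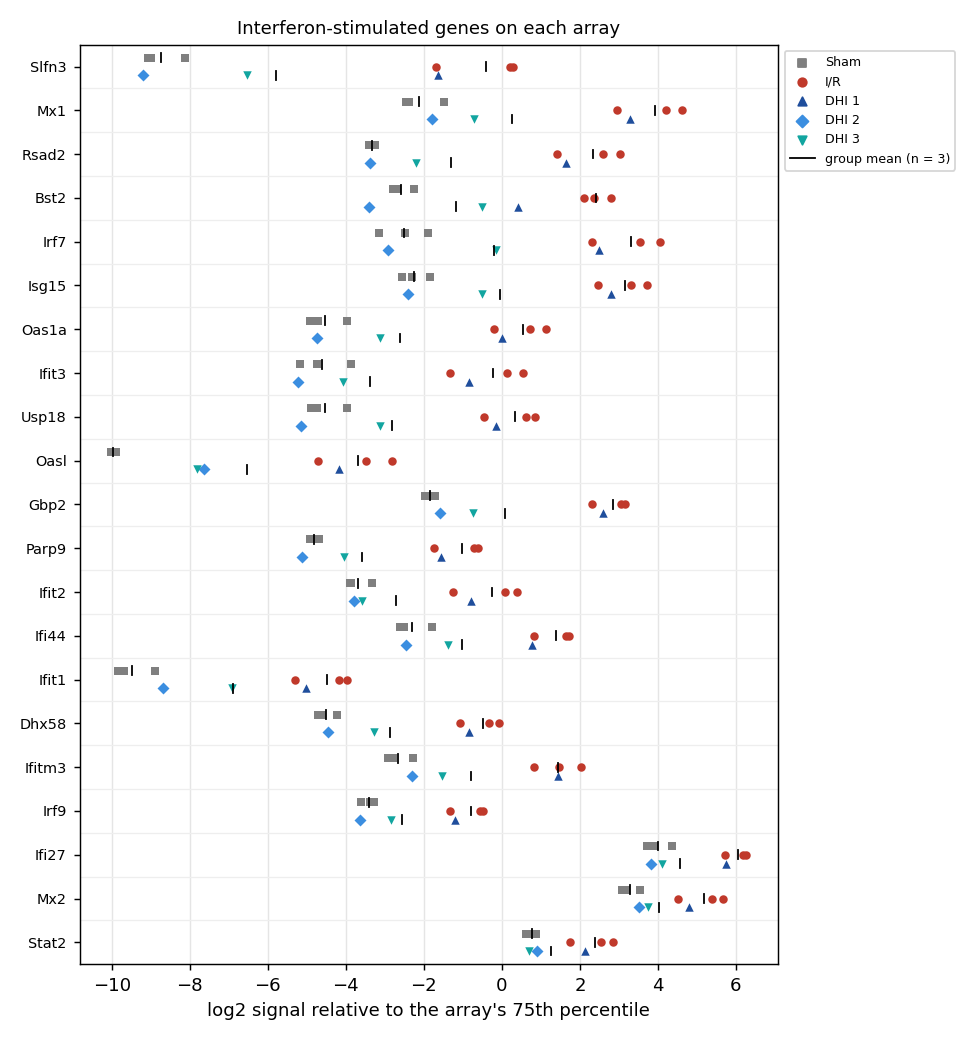
Points give the level (log2 signal, with 0 at the array's 75th percentile) of 21 of the interferon-stimulated genes on each array, ordered by log2 FC, and black ticks the group means. DHI 1 lies below all I/R arrays for 2 genes, Bst2 and Ifi44, whereas DHI 2 and DHI 3 do so for all genes shown.

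Promoters of these genes are shown because the list moved together and because the interferon-stimulated response element, a binding site of STAT and IRF factors, can be read in them. The element was searched as GAAA, any 2 bases, and GAAA on both strands, in windows of 250 bases before to 50 bases after the RefSeq start (GRCr8). Of the 22 genes 15 had a window under their symbol, and 9 of these (60%) held the element, as against 1131 of all 27457 genes with a window (4.12%). The next lines give 120 bases from the windows of 4 of them, in the direction of the gene, with the element in capitals. In Ifi44, Rsad2, and Irf7 it lies on the opposite strand and reads as its reverse complement. In Bst2 it occurs as 2 overlapping copies.
Bst2, chr16:18255029-18255148, minus strand: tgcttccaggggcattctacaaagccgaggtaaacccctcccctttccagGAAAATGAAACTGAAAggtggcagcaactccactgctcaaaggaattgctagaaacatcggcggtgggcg
Ifi44, chr2:243303841-243303960, minus strand: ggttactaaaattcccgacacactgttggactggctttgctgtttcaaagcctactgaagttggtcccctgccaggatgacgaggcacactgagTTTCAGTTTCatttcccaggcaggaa
Rsad2, chr6:48788198-48788317, minus strand: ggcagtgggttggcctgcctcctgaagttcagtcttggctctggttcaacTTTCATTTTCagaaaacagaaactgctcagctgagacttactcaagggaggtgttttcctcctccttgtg
Irf7, chr1:205800024-205800143, minus strand: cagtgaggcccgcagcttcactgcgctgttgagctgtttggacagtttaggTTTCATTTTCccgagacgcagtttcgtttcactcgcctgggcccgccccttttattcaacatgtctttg
A match describes the letters in these windows and is not evidence of binding. Of the 9 genes of MHC class I loading and the immunoproteasome, all with a window, 7 (77.8%) held the element. It was found in 2 of 10 genes of microglia and macrophages (20%), 0 of 8 complement genes, and 0 of 9 neuronal genes with a window.

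Genes that load peptides on MHC class I molecules fell in 7 of 9 cases, against 10.5% of all probes tested (median log2 FC -1.77). Psme1, a subunit of the proteasome activator, fell by 1.57 (SE 0.50) and was the only kept call. It gave 4.48, 4.44, and 3.56 in I/R and 3.77, 1.76, and 2.25 in DHI. B2m, the shared light chain of class I molecules, gave 5.65, 5.46, and 4.61 in I/R and 5.03, 2.41, and 2.89 in DHI, a log2 FC of -1.79 (SE 0.63). Psmb8, an immunoproteasome subunit, fell by 2.76 (SE 0.89) and Tap1, a peptide transporter, fell by 2.19 (SE 0.84). DHI 1 was within the I/R range for all 9 genes, and outside it for 25.3% of all probes tested. Of the 9 genes, 2 were called without DHI 2, 2 without DHI 3, 1 without I/R 1, and 3 without I/R 2. In the MHC class II list 2 of 7 fell, RT1-DMa and RT1-DMb, and 0 were called without DHI 2, DHI 3, I/R 1, or I/R 2. The share called was 28.6%, against 21.9% of all probes tested. Cd74, the invariant chain, was not called, with 2.95, 2.41, and 1.11 in I/R and 2.98, -0.50, and 0.97 in DHI.

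T cell genes were low in Sham, and 6 of 13 fell in DHI, against 10.5% of all probes tested (median log2 FC -0.91). Cd4 was the kept call, with -2.0, -2.64, and -3.45 in I/R, -3.44, -5.66, and -5.39 in DHI, and -6.13 to -5.87 in Sham (log2 FC -2.13, SE 0.59). Cd3g, a chain of the T cell receptor complex, gave -3.80, -3.62, and -3.76 in I/R and -4.01, -6.35, and -6.92 in DHI, with no overlap (log2 FC -2.04, SE 0.66). Cd8a, the coreceptor of cytotoxic T cells, gave -1.63, -1.08, and -2.71 in I/R and -1.57, -9.29, and -9.47 in DHI, where it was well above background on 1 array. No Sham array had it well above background, so Cd8a also passed the filter on dim probes through I/R alone. The number called was 1 without DHI 2, 2 without DHI 3 or I/R 1, 9 without DHI 1, and 3 with normexp background correction. Of 7 neutrophil genes 1 was called (14.3%, against 21.9% of all probes tested). S100a8 and S100a9, calcium-binding proteins of neutrophils, were not called (log2 FC -0.89 and -0.56), while Mpo, or myeloperoxidase, at -7.32 to -7.63 in I/R and -7.05, -6.22, and -6.33 in DHI, rose by 0.94 (SE 0.23), a kept call.

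Genes of microglia and macrophages fell in 14 of 16 cases, against 10.5% of all probes tested, with a median log2 FC of -2.21. The median level of the list was 2.81, 2.32, and 1.27 on the I/R arrays, 2.09, -0.83, and -0.45 on the DHI arrays, and -1.02 to -0.81 on the Sham arrays. DHI 1 lay within the I/R range for all 16 genes, and DHI 2 and DHI 3 lay outside it for all 16. Over all probes tested, DHI 2 lay outside it for 78.8%, DHI 3 for 75.9%, and DHI 1 for 25.3%. The difference between the DHI arrays was thus not particular to this list. Cd68, a lysosomal protein of phagocytes, had the largest fall, with 4.44, 4.14, and 2.73 in I/R and 3.62, -2.82, and -1.57 in DHI (log2 FC -4.03, SE 1.45). Aif1, the microglial protein Iba1, gave 5.86, 5.58, and 4.40 in I/R and 4.86, 1.78, and 2.39 in DHI (log2 FC -2.27, SE 0.75). P2ry12 and Tmem119, which mark resident microglia, had log2 FCs of -1.71 (SE 0.62) and -1.5 (SE 0.51), and both were called. Cx3cr1, the fractalkine receptor, went the other way, with 0.93, 0.81, and 0.07 in I/R and 0.30, 2.54, and 1.66 in DHI, and was not called (log2 FC 0.90, SE 0.52). The number of falls was 0 when DHI 2 or DHI 3 was left out, 1 when I/R 1 was, 3 when I/R 2 was, and 15 when DHI 1 was, and the methods' t-test called 0.

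Other lists hold genes that phagocytes use, and their falls are set against 10.5% of all probes tested. Of 13 genes of lipid-laden phagocytes 8 fell, among them Gpnmb, with 4.44, 4.87, and 3.57 in I/R and 4.72, -2.74, and -0.84 in DHI (log2 FC -3.91, SE 1.61). Spp1, or osteopontin, had the largest fitted change, with 4.21, 4.19, and 2.15 in I/R and 3.81, -5.90, and -2.13 in DHI, but was not called (log2 FC -4.92, SE 2.24). Of 16 complement genes 13 fell (median log2 FC -2.57), among them C3 (log2 FC -3.01, SE 1.08) and C1qa (-2.42, SE 0.81), while the regulators Cd55, Cd59, and Cfi were not called. Of 7 genes of the phagocyte oxidase and inducible nitric oxide synthase 6 fell, led by the catalytic subunit Cybb (log2 FC -3.0, SE 1.20), and Nos2 was not called. Cybb was not well above background on all 9 arrays, so its value may rest in part on background levels. Among the oxidase list members that were, 4 of 5 fell. Without DHI 2 or DHI 3, 0 genes of these 3 lists were called, and without I/R 1 the counts were 0, 1, and 0. Without I/R 2 they were 0, 7, and 1, and the count of lipid-laden phagocyte genes was 2 without any 1 Sham array.

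Falls in the TLR4 list and in the cytokine list are set against 10.5% of all probes tested. In the TLR4 list 9 of 14 genes fell (median log2 FC -1.12). Its members before the signal reaches the nucleus included Ly96, the TLR4 coreceptor, with -0.93, -0.93, and -2.01 in I/R and -1.55, -5.19, and -4.33 in DHI (log2 FC -2.40, SE 0.83). The adaptor Myd88 gave 2.32, 2.07, and 1.21 in I/R and 1.63, -0.71, and -0.41 in DHI (log2 FC -1.70, SE 0.59). The lipopolysaccharide-binding protein gene Lbp had the largest fall (log2 FC -3.60, SE 1.25). Lbp was not well above background on all 9 arrays, so its value may rest in part on background levels. Among the TLR4 list members that were, 6 of 11 fell. Irak1, Traf6, and Tab1 had log2 FCs of -0.09 to 0.09 and were not called. Of 15 inflammatory cytokines and receptors 13 fell (median log2 FC -1.97), among them Cxcl10 (log2 FC -4.04, SE 1.34), with 1.18, 1.55, and 0.08 in I/R and 0.48, -5.10, and -4.67 in DHI. The receptor Il6r was the only kept call of the 15, at -0.11, -0.24, and -1.0 in I/R and -0.98, -3.16, and -3.09 in DHI (log2 FC -1.96, SE 0.57). The TLR4 list had 1 call without DHI 2, 2 without DHI 3 or I/R 2, and 0 without I/R 1, and the cytokine list 1 without DHI 2, 1 without DHI 3, and 2 without I/R 1 or I/R 2.

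**Figure D4:**
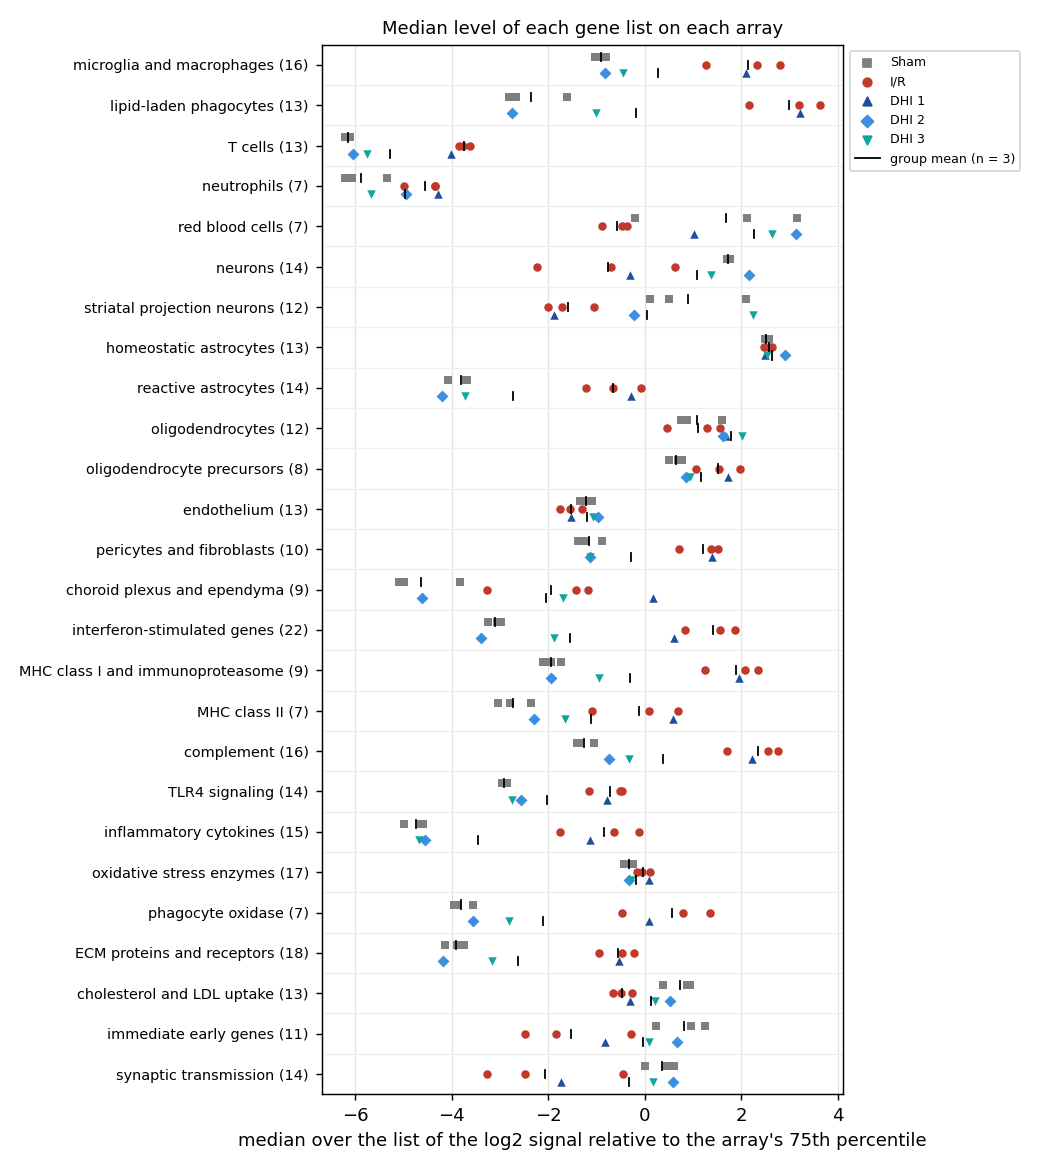
Points give, for each of 26 gene lists (number of genes tested in parentheses), the median over its genes of the level (log2 signal, with 0 at the array's 75th percentile) on each of the 9 arrays, and black ticks the mean of the 3 array medians. For microglia and macrophages DHI 1 (2.09) lies among the I/R arrays and DHI 2 (-0.83) and DHI 3 (-0.45) near the Sham arrays, whereas for red blood cells all 3 DHI arrays lie above the I/R arrays.

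Reactive astrocyte genes fell in 9 of 14 cases, against 10.5% of all probes tested (median log2 FC -2.04), and 14 of 14 had a negative log2 FC. Gfap, the intermediate filament of astrocytes, gave 2.92, 3.29, and 2.21 in I/R, 2.51, -0.20, and 0.10 in DHI, and -1.18 to -0.60 in Sham (log2 FC -2.0, SE 0.67). Ceruloplasmin (Cp) fell by 2.97 (SE 1.07) and Timp1, an inhibitor of metalloproteinases, fell by 2.61 (SE 0.93). Serpina3n and Osmr, the receptor of oncostatin M (log2 FC -1.43, SE 0.43), were the kept calls. Osmr was well above background on 1 DHI array and on no Sham array, so that its value is set against background levels. In the list of homeostatic astrocytes 2 of 13 fell, and 10 with no scaling. The share called was 15.4%, against 21.9% of all probes tested. Mlc1, a membrane protein of astrocyte endfeet, gave 2.38, 2.08, and 1.87 in I/R and 1.60, 0.17, and 0.69 in DHI, with no overlap and a kept call (log2 FC -1.29, SE 0.35). Aqp4, the water channel of the endfeet, gave 5.20, 4.98, and 4.62 in I/R and 4.79, 2.99, and 3.68 in DHI (log2 FC -1.11, SE 0.42). The glutamate transporter gene Slc1a2, at 1.24, 1.16, and 1.80 in I/R and 1.06, 3.04, and 2.53 in DHI, was not called. Reactive astrocyte calls numbered 2 without DHI 2, DHI 3, or I/R 2, and 3 without I/R 1.

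Among genes of the extracellular matrix and its receptors, 12 of 18 fell and 2 rose (median log2 FC -1.44). For this list and that of pericytes and fibroblasts, the shares over all probes tested were 10.5% lower and 11.5% higher. Hmmr, a hyaluronan receptor and spindle protein, gave -6.88, -8.34, and -7.51 in I/R and -6.39, -5.98, and -5.77 in DHI (rise of 1.53, SE 0.42). Thbs4, or thrombospondin-4, gave -2.01, -2.21, and -3.08 in I/R and -3.34, -5.48, and -4.86 in DHI (log2 FC -2.13, SE 0.56). All 3 DHI arrays were beyond all I/R arrays in Hmmr, in Thbs4, and in Vtn, the gene of vitronectin (log2 FC -0.79, SE 0.23). Cd44, the main hyaluronan receptor, gave 0.87, 0.59, and 0.24 in I/R and 0.40, -3.35, and -2.45 in DHI (log2 FC -2.36, SE 0.83), with DHI 1 inside the I/R range. Of its other 2 probes, one fell by 1.61 and one, with a log2 FC of 0.27, was not called. In the list of pericytes and fibroblasts 5 of 10 fell, all of them matrix genes, with Lum the largest (log2 FC -3.89, SE 1.33) and Col1a1 at 4.67, 4.41, and 3.66 in I/R and 4.42, -0.60, and -0.23 in DHI (log2 FC -3.05, SE 1.18). Without DHI 2, DHI 3, or I/R 1 the matrix list had 3 falls and the pericyte and fibroblast list 0, and without I/R 2 they had 3 and 2.

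Neuronal genes rose in 11 of 14 cases, against 11.5% of all probes tested, with a median log2 FC of 1.92. The median level of the list was -2.22, -0.69, and 0.63 on I/R 1 to I/R 3, -0.30, 2.16, and 1.38 on DHI 1 to DHI 3, and 1.71 to 1.76 on the Sham arrays. Rbfox3, the nuclear marker NeuN, gave -7.12, -6.98, and -4.82 in I/R, -5.51, -3.20, and -4.13 in DHI, and -3.70 to -3.21 in Sham (rise of 2.03, SE 0.73). Snap25, of the synaptic release machinery, gave 0.80, 1.36, and 3.61 in I/R and 2.96, 4.75, and 4.15 in DHI (rise of 2.03, SE 0.74). The neurofilament gene Nefl rose by 2.32 (SE 0.83) and Camk2a, a kinase of excitatory neurons, by 2.31 (SE 0.76). Gad1, which makes GABA, had 0.36, 2.58, and 2.64 in I/R and 1.79, 3.58, and 3.92 in DHI and was not called. I/R 1 was thus the lowest array for the list median. DHI 1 was within the I/R range for 14 of 14 genes, and outside it for 25.3% of all probes tested. The count was 0 without DHI 2 or I/R 1, 1 without DHI 3 or I/R 2, and 14 without DHI 1, and with no scaling it was 1.

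Synaptic genes rose in 8 of 14 cases, against 11.5% of all probes tested (median log2 FC 1.52). Grin2a, a subunit of the NMDA receptor, gave -4.44, -4.27, and -1.16 in I/R and -2.24, 0.57, and -0.52 in DHI (rise of 2.56, SE 0.96). Dlg4, the scaffold PSD-95, rose by 2.07 (SE 0.67) and Syp, or synaptophysin, by 1.80 (SE 0.69). Adora1, the adenosine A1 receptor, was the kept call, with 0.60, 0.10, and 0.08 in I/R and 0.64, 1.37, and 1.33 in DHI, where DHI 1 lay just above I/R 1 (rise of 0.85, SE 0.25). The count was 1 without DHI 2 or I/R 1, 2 without DHI 3 or I/R 2, 14 without DHI 1, and 1 with no scaling. Of 11 immediate early genes, which neurons switch on within minutes of activity, 3 rose (27.3% called, against 21.9% of all probes tested). Egr1 gave -0.44, -0.40, and -0.28 in I/R and -0.07, 2.68, and 1.46 in DHI (rise of 1.73, SE 0.60), with no overlap. Npas4, a neuronal activity factor, did not exceed background well on the I/R arrays, and its level in DHI was at least 3.28-fold higher. Arc rose by 2.94 (SE 1.18), at -2.84, -1.84, and 0.30 in I/R and -0.83, 3.69, and 1.58 in DHI. Fos was not called, at -2.48, -2.32, and -2.56 in I/R and -2.88, -1.67, and -3.51 in DHI, where the DHI arrays lay on both sides of I/R. Without DHI 3 none of the 11 was called, without DHI 2 or I/R 1 only 1, and without DHI 1 6 were.

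Genes of cholesterol synthesis and uptake rose in 9 of 13 cases, against 11.5% of all probes tested, with a median log2 FC of 1.06. These enzymes are switched on together by SREBP-2, the product of Srebf2, when a cell lacks sterols. Hmgcs1, the first committed enzyme, gave 2.00, 1.93, and 3.03 in I/R, 2.85, 4.78, and 4.21 in DHI, and 4.30 to 4.55 in Sham (rise of 1.63, SE 0.49). Sqle, or squalene epoxidase, gave 0.36, 0.72, and 1.1 in I/R and 1.18, 2.07, and 1.93 in DHI, with no overlap (rise of 1.00, SE 0.28). Insig1, which retains SREBP in the endoplasmic reticulum, gave -1.53, -1.40, and -0.92 in I/R and -0.79, 0.52, and 0.21 in DHI, also with no overlap (rise of 1.26, SE 0.36). Srebf2 itself rose by 1.22 (SE 0.38). Abca1, which exports cholesterol from cells, fell by 2.36 (SE 1.01), and its call was lost without any 1 Sham array. Dhcr7 and Fdft1 were not called. The number of rises was 6 without DHI 2, 7 without DHI 3 or I/R 1, and 8 without I/R 2, and 5 of the 9 were kept calls. With no scaling 4 rose.

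Of 7 red blood cell genes 5 rose and 1 fell (median log2 FC 2.06), the 5 rises showed no overlap, and the methods' t-test also called these 5. Of all probes tested, 11.5% rose, 10.5% fell, and 5.51% were higher in DHI with no overlap. Hba-a2, named Hba-a1 in RefSeq, encodes the alpha chain of hemoglobin. Its brightest probe gave 0.69, 1.00, and 1.24 in I/R, 2.30, 4.72, and 3.93 in DHI, and 1.44, 4.28, and 3.34 in Sham (rise of 2.67, SE 0.79). All DHI arrays were above all I/R arrays, and Sham 1 was the array next to I/R. Ahsp, which stabilizes free alpha chains, gave -4.17, -4.34, and -4.11 in I/R, -3.52, -2.80, and -3.07 in DHI, and -2.98 to -2.71 in Sham (rise of 1.08, SE 0.20). Alas2, the first enzyme of heme synthesis in red cells, gave -6.24, -6.21, and -5.88 in I/R and -5.30, -3.08, and -3.76 in DHI (rise of 2.06, SE 0.66). Slc4a1, the band 3 anion exchanger, fell by 1.17 (SE 0.49), at -4.17, -4.87, and -5.99 in I/R and -5.63, -6.33, and -6.57 in DHI, and its call was lost when Sham 3, I/R 1, or I/R 2 was left out, and likewise for DHI 2 or DHI 3. The rises numbered 4 without DHI 2 and 5 without each other array. How much blood the tissue pieces held is not given in the sources used here, and its part in these values was not tested.

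Against the 21.9% of all probes tested, 16.7% of the oligodendrocyte genes, 25% of the oligodendrocyte precursor genes, and 7.69% of the endothelial genes were called. Of 12 oligodendrocyte genes 2 rose, Mobp by 1.11 (SE 0.43) and Opalin by 0.87 (SE 0.37). Mbp, the major myelin protein, gave 6.67, 6.70, and 6.47 in I/R and 6.69, 7.22, and 6.98 in DHI and was not called. Among 8 genes of oligodendrocyte precursors, Olig1 rose by 0.71 (SE 0.25) and Pdgfra, at 2.90, 2.38, and 2.10 in I/R and 2.51, 0.51, and 0.82 in DHI, fell by 1.18 (SE 0.49). None of these 4 calls was kept. In the endothelial list 1 of 13 was called, and 7 fell with no scaling. Mfsd2a, the lipid transporter that keeps the blood-brain barrier tight, gave -1.61, -2.09, and -2.38 in I/R, -1.53, -0.97, and -0.80 in DHI, and -1.19 to -0.94 in Sham. It rose by 0.93 (SE 0.26), with DHI 1 just above I/R 1 and a kept call. Cldn5, the tight junction protein, had a log2 FC of -0.14 (SE 0.15), and its levels were 0.97 to 1.38 in I/R and 0.98 to 1.11 in DHI.

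Genes of striatal neurons and of the choroid plexus varied between arrays of the same group. In the striatal list 2 of 12 rose, Scn4b by 2.62 (SE 0.78) and Ppp1r1b, or DARPP-32, by 1.75 (SE 0.75). That is 16.7% called, against 21.9% of all probes tested. The call of Scn4b was kept, and that of Ppp1r1b was lost without Sham 2, Sham 3, or any 1 of the DHI 2, DHI 3, and I/R arrays. Without DHI 1 the striatal list had 7 calls. The dopamine receptor gene Drd2 gave -2.35, -1.07, and -2.33 in I/R, -3.0, -0.77, and 2.23 in DHI, and 2.26, -1.85, and -0.86 in Sham. DHI 3 and Sham 1 were thus the high arrays, and the median level of the list was 2.25 on DHI 3, 2.09 on Sham 1, and between -2.0 and 0.51 on the others. Of the 9 choroid plexus and ependymal genes 0 were called by limma, against 3 without DHI 1, 2 without I/R 3, and 1 without DHI 2. Ttr, or transthyretin, the main secreted protein of the choroid plexus, gave -0.65, -1.65, and -0.21 in Sham, -0.54, 0.19, and 6.53 in I/R, and 7.05, 2.88, and 6.20 in DHI (log2 FC 3.32, SE 1.85). The highest values were on DHI 1, I/R 3, and DHI 3. On DHI 1 the median level of the list was 0.17, the highest of the 9 arrays, while DHI 2 (-4.61) was near Sham (-5.08 to -3.82). The part that differences in the dissected tissue had in these lists or in the others was not tested.

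**Figure D5:**
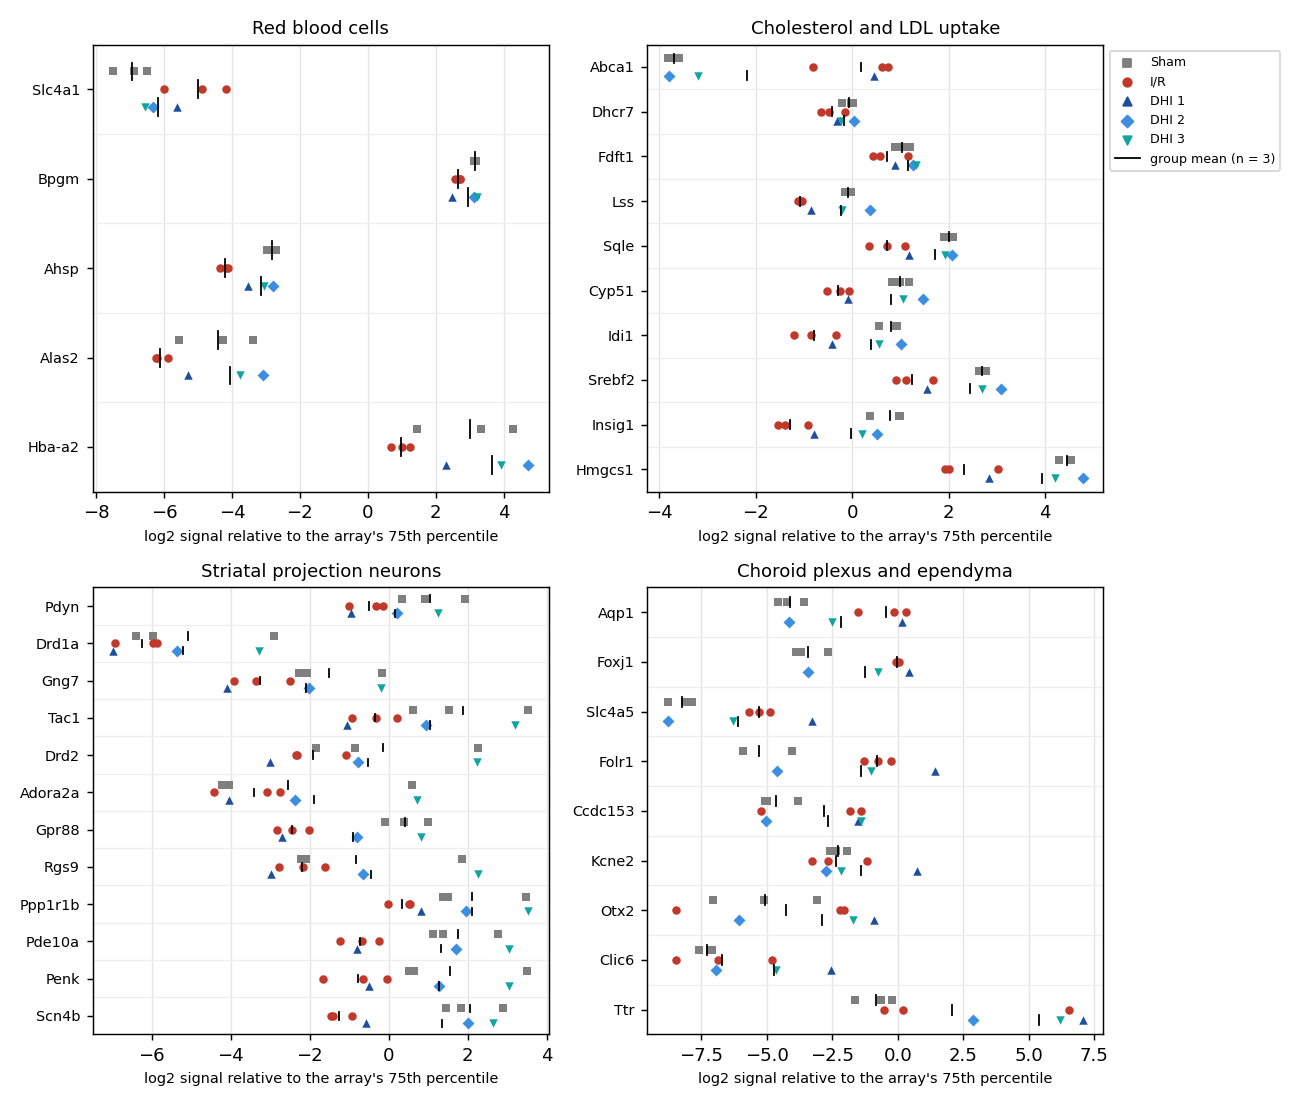
Points give the level (log2 signal, with 0 at the array's 75th percentile) of members of the red blood cell, cholesterol, striatal, and choroid plexus lists on each array, ordered by log2 FC, and black ticks the group means. The hemoglobin gene Hba-a2 is higher on the 3 DHI arrays than on the I/R arrays, Drd2 is high on DHI 3 and Sham 1, and Ttr is high on DHI 1, DHI 3, and I/R 3.

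The study also measured cytokine concentrations and enzyme activities in serum, and selected transcripts by qRT-PCR. The arrays hold the genes of most of these. Their values are RNA levels in the hemisphere, which is a different measure from protein or activity in serum. Il1b gave -2.66, -2.38, and -3.55 in I/R and -2.71, -5.90, and -5.88 in DHI and fell by 1.97 (SE 0.80), but the call was lost without Sham 1, Sham 2, Sham 3, I/R 1, I/R 2, DHI 2, or DHI 3. Tnf, at -3.33, -1.53, and -3.21 in I/R and -2.38, -4.54, and -4.70 in DHI, was not called (log2 FC -1.19, SE 0.68). Il6 had no probe that passed the filter on dim probes and was not tested. Of 17 genes of the oxidative stress list 2 fell (9 with no scaling), Hmox1, which degrades heme (log2 FC -2.39, SE 0.88), and Nqo1 (-0.83, SE 0.32). That is 11.8% called, against 21.9% of all probes tested. The superoxide dismutase gene Sod1 gave 4.27, 4.12, and 4.27 in I/R and 4.28, 4.82, and 4.57 in DHI, with no overlap but a log2 FC of 0.34 (SE 0.17) that was not called. Sod2 (log2 FC 0.38, SE 0.22), Gpx1 (-1.28, SE 0.58), Maoa (-0.14, SE 0.13), and Maob (-0.57, SE 0.27) were not called either. With no scaling the log2 FC of Sod1 was -0.12 and that of Sod2 -0.08. The beta-3 adrenergic receptor gene Adrb3 gave -6.92, -5.67, and -6.60 in I/R, -5.41, -4.41, and -4.75 in DHI, and -5.97, -5.80, and -4.56 in Sham. All 3 DHI arrays were above all I/R arrays, and the rise of 1.54 (SE 0.47) was a kept call.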

How the data were processed

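Total RNA of the infarcted hemisphere of 9 rats was hybridised to one-color Agilent arrays. The deposited intensity values are the processed signals that the authors obtained with Agilent Feature Extraction 10.7.1.1, which subtracts background. The authors also deposited a table of log2 values, which follows quantile-normalised log2 signals (r = 0.99953, column medians 7.57 to 7.58) and was used as an alternative. Here, log2 signals were scaled to the 75th percentile of each array over non-control spots, spots of a probe were averaged, and the 3 groups were fitted with limma 3.58.1 in R 4.3.3 (files read with data.table, version 1.17.8), with Benjamini-Hochberg adjustment over all probes tested. A call needed an unadjusted p under 0.05 and an FC over 1.5, as in the study. The procedure was tested on simulated data. There each probe was drawn independently with the same spread in every group, and all DHI arrays were shifted alike in the changed probes. The real DHI arrays did not behave alike, so the simulation cannot show how the calls hold in that case. A list member with several probes is given by its brightest probe. A fold against probes not well above background is a bound, set by the lowest signal well above background on each array.

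The genes named are the 12 with the smallest p in each direction among called, non-overlapping probes well above background on the 6 arrays, the 8 with the largest change in each direction among kept calls, members of 26 gene lists, and genes the study measured otherwise. Some list members outside this rule (Adora1, Cd55, Cd59, Cfi, Dhcr7, Fdft1, Hmmr, Ifi27, Ifi44, Ifit1, Il6r, Irak1, Irf9, Oasl, Osmr, Parp9, Psme1, Sqle, Srebf2, Stat2, Tab1, Traf6, and Vtn) were chosen after their values were seen. Members and lists were chosen with earlier results of these data known. Placeholder names were not counted as symbols, and some genes are not reported here. The files place probes on rn4, and promoter windows come from RefSeq (GRCr8). The number of value columns left unused was 0.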

Additional observations from a re-analysis of the deposited data

How the results depend on the processing

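Among the 158 genes and probes followed, the 131 that were called kept their direction in every alternative run. For genes chosen for non-overlap or as kept calls, the choice itself fixed this in the runs with 1 array left out. All runs use the same arrays, so this is no independent support. Signs turned only in genes that were not called. With no scaling between arrays the log2 FC was -0.12 for Sod1, -0.08 for Sod2, -0.11 for Mbp, and -0.08 for Nos2, and with normexp it was 0.03 for Lpl and 0.27 for Cd3e. With 1 array left out it ranged from -0.74 to 0.25 for Lpl and from -0.75 to 0.18 for Fos. The number of probes called was 2149 with only the DHI and I/R arrays in the fit, 11904 with array weights, and 469 with the methods' t-test. In the fit with only DHI and I/R arrays, limma called 20 of 22 interferon-stimulated and 9 of 13 cholesterol genes. It called 7 of 16 genes of microglia and macrophages, 0 of 13 of lipid-laden phagocytes, 2 of 14 neuronal, and 2 of 14 synaptic genes. With array weights, 11817 probes passed the adjusted threshold in limma. That number was 0 with normexp (6212 probes at an unadjusted p under 0.05), when each of the 9 arrays had to exceed background well (5537), with only the DHI and I/R arrays (2250), and with the methods' t-test (1011). Leaving out 1 array at a time gave 939 to 10737 called probes and 0 to 9527 adjusted calls. Without 1 DHI or I/R array, 11.2% to 66.8% of probes had no overlap. This sets 2 arrays against 3, so it is met more easily and is unlike the 9.53% of the full data. No scaling gave 25.2% with no overlap on all arrays. The median log2 FC of all probes was -0.36 with no scaling. The share of called probes that were higher in DHI was 45.8% with quantile normalization, 64.2% without I/R replicate 1, and 62.7% with the methods' t-test. Deviations from the group means correlated at r from -0.34 to 0.48 over 9 pairs of same-numbered arrays of different groups. For arrays with different numbers r ran from -0.53 to 0.46. With 3 arrays per group these values cannot show whether the numbers pair the rats. A replicate block gave 6313 called probes and 1 adjusted call. The slide as a block could not be fitted, because all DHI arrays and no others were on slide 2.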
